A study of Mus musculus with 9 samples.

Results

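The genes described are 10 components of Nodal, TGF-beta and BMP signalling, most of them targets of these pathways that act back on them, out of 19938 genes with a probe set that carries a single gene symbol. They are Nodal and its co-receptor gene Tdgf1, the secreted inhibitors Lefty1 and Lefty2, the intracellular inhibitors Skil and Smad7, the decoy receptor gene Bambi, and the BMP target genes Id1, Id2 and Id3. They were chosen by name with earlier results of the same arrays known. The measured values behind that choice are the log2 differences between hairpin groups, where Skil and Bambi went in opposite directions, so their levels and differences are a description and were given no test. Each of the 10 genes had 1 probe set, and the mean of each lay above the median probe set of 7.06.

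Expression was measured on 9 Affymetrix arrays of total RNA from R1E, a line of mouse embryonic stem cells, in 3 groups of 3 arrays. The shApela_2 and shApela_1 cells were transduced with lentivirus carrying the second or the first of 2 short hairpin RNAs against Apela, which encodes a secreted peptide ligand of the apelin receptor. The shLuc cells received a hairpin against luciferase, an insect enzyme with no counterpart in mouse cells. All groups were grown in serum with leukaemia inhibitory factor (LIF), which keeps mouse embryonic stem cells undifferentiated, and the sample titles name no drug treatment. The hairpin sequences, the time after transduction, and whether the cells of a group were a pool or a clone are unstated in the sources used here. No label tells whether the 3 repeats were separate cultures, so a p-value measures only the spread between these samples, which may be technical, and precision is limited by the small number of arrays.

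Values are the authors' normalised log2 expression, on which a difference of 1 is a doubling. Apela had 9.79, 9.79 and 9.56 in shApela_2 cells and 9.76, 9.68 and 9.65 in shApela_1 cells, against 11.40, 11.31 and 11.19 in shLuc cells (replicates 1 to 3). Every hairpin array lay below every control array, and the group means equalled 33.4% (shApela_2) and 32.9% (shApela_1) of the shLuc level. Of 10 markers of undifferentiated embryonic stem cells, including Pou5f1, Nanog and Sox2, all 10 lay above the median probe set. Their mean level was 11.48 to 11.61 on shApela_2 arrays, 11.54 to 11.57 on shApela_1 arrays and 11.55 to 11.57 on shLuc arrays. The third shApela_2 array stood apart from the rest. Its median was 7.12 and its interquartile range 3.29, against 7.03 to 7.07 and 3.50 to 3.59 on the other 8 arrays, so results of shApela_2 that turn on it are also given without it.

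As background, Nodal is a secreted ligand of the TGF-beta family that signals through activin receptors and Smad2 and Smad3, and it needs the membrane-anchored co-receptor Cripto, the product of Tdgf1. Lefty1 and Lefty2 are induced by Nodal signalling and block it outside the cell. The same pathway and the related TGF-beta pathway induce Skil, whose product SnoN represses Smad target genes, and Smad7, an inhibitory Smad that acts at the receptor. BMP ligands signal through Smad1 and Smad5 and induce Bambi, a receptor-like protein that lacks a kinase, and the Id genes, whose products bind E proteins and keep them from DNA. In mouse embryonic stem cells, BMP activity from serum acts together with LIF to hold back differentiation, and Id proteins are known as mediators of that effect.

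The promoters of Id2 and Id3 are shown because these BMP targets are the Id genes with a sequence at hand. They are the 250 bases before the RefSeq start site on the gene's own strand (GRCm38.p6), Id2 at chr12:25096093-25096342 on the minus strand and Id3 at chr4:136143572-136143821 on the plus strand. Capitals mark the Smad element CAGAC (or GTCTG, its other strand) and the GC-rich element GGCGCC, which reads the same on either strand and is bound by BMP Smads.
Id2: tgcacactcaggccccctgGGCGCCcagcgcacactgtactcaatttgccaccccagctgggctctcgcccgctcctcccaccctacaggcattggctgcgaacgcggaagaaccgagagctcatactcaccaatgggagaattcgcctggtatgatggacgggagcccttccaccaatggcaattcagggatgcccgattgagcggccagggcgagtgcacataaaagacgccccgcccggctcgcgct
Id3: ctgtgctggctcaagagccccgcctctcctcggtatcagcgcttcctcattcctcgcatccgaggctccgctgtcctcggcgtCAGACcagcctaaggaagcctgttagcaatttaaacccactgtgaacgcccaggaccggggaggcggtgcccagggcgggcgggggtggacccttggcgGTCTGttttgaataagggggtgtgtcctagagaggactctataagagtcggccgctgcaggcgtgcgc
The Id2 window held 1 GGCGCC, with its first base at position -231 from the start, and no CAGAC, and the Id3 window held CAGAC at -167 and GTCTG at -68, and no GGCGCC. The Tdgf1 window held 1 CAGAC at -113 and the Nodal window held neither motif. A related element, GGAGCC or GGCTCC on the other strand, was found in the windows of Nodal (-25), Id2 (-88) and Id3 (-187), and in 26.0% of all windows. CAGAC or GTCTG occurred in 42.2% of 32851 promoter windows of that length and GGCGCC in 9.59%, and the matches are a description of the letters only. RefSeq promoter entries were matched for 4 of the 10 genes.

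Nodal itself was nearly the same in the 3 groups. It had 10.08, 10.03 and 10.12 in shApela_2 cells, 10.01, 10.03 and 10.02 in shApela_1 cells, and 10.03, 10.04 and 10.08 in shLuc cells. All 3 groups overlapped, and the differences from shLuc were 0.03 for shApela_2 (0.00 without the third shApela_2 array) and -0.03 for shApela_1, each with a standard error (SE) of 0.04. In bulk RNA, fewer cells of a type and less RNA per cell cannot be told apart, here and for every gene below.

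Tdgf1, whose protein Cripto lets Nodal bind its receptor, had 12.21, 12.26 and 12.33 in shApela_2 cells, 12.08, 12.19 and 12.22 in shApela_1 cells, and 12.21, 12.20 and 12.31 in shLuc cells. The groups overlapped, and the third array was the highest of its group in all 3 groups. The mean difference was 0.03 for shApela_2 against shLuc, -0.08 for shApela_1 against shLuc and 0.11 between shApela_2 and shApela_1 (SE 0.05). Without the third shApela_2 array the first of these was 0.00 and the last 0.07.

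The Lefty genes showed the widest spread of the 10 within every group. Lefty1 had 10.73, 10.56 and 10.23 in shApela_2 cells, 10.93, 10.68 and 10.46 in shApela_1 cells, and 10.59, 10.55 and 10.08 in shLuc cells. Lefty2 had 9.36, 9.08 and 8.17 in shApela_2 cells, 9.53, 9.32 and 8.78 in shApela_1 cells, and 9.18, 9.14 and 8.49 in shLuc cells. Both inhibitors were lowest on the third array of every group, and all groups overlapped. The third array minus the mean of its group's other arrays was -0.41, -0.34 and -0.49 for Lefty1 in shApela_2, shApela_1 and shLuc cells, and -1.05, -0.64 and -0.67 for Lefty2.

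The group means of Lefty1 were 10.50 ± 0.25 in shApela_2, 10.69 ± 0.24 in shApela_1 and 10.41 ± 0.28 in shLuc cells (SD, n = 3 each), a difference of 0.29 (SE 0.18) for shApela_1 and of 0.10 for shApela_2 against shLuc. Without the third shLuc array these were 0.12 and -0.06, and without the third shApela_1 array the first was 0.40. Compared only between arrays of the same number, Lefty1 was higher in shApela_1 than in shLuc cells by 0.34, 0.13 and 0.38, and in a fit blocked on replicate number the SE was 0.05. Lefty2 averaged 8.87 ± 0.62 in shApela_2, 9.21 ± 0.39 in shApela_1 and 8.94 ± 0.39 in shLuc cells. Its same-number differences between shApela_1 and shLuc were 0.35, 0.18 and 0.29, all positive (mean 0.27, but 0.05 without the third shLuc array and 0.49 without the third shApela_1 array), while those between shApela_2 and shLuc were 0.18, -0.05 and -0.32. The shApela_2 means moved with the array that stood apart: without it the difference from shLuc was 0.28 for Lefty2, against -0.07 with it, and 0.23 for Lefty1. Between shApela_2 and shApela_1, Lefty2 differed by -0.34 with that array and by 0.01 without it. Leaving it out keeps the low replicate 3 arrays of the other groups, so the values without it are unbalanced for replicate number. Same-number differences of Lefty2 between shApela_2 and shApela_1 were -0.17, -0.23 and -0.61, all negative. Against shLuc, the shApela_2 differences on replicates 1 and 2 were 0.18 and -0.05 for Lefty2, and 0.13 and 0.01 for Lefty1.

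**Figure D1:**
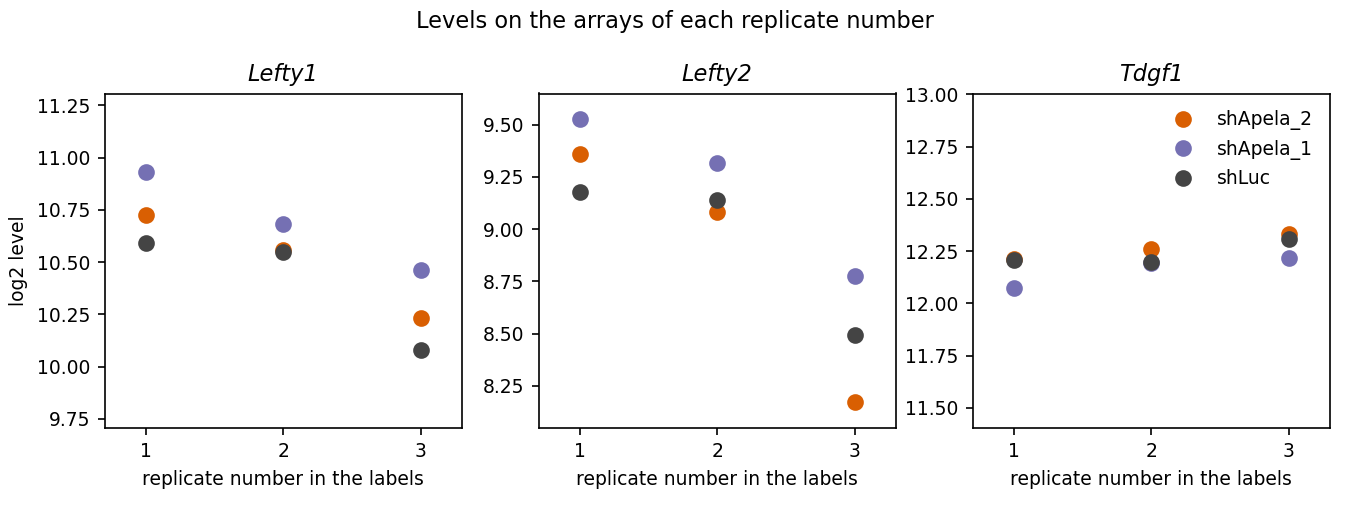
Log2 expression of Lefty1, Lefty2 and Tdgf1 (vertical axes) against the replicate number of the array (horizontal axis), with a point for each array of shApela_2, shApela_1 and shLuc cells. Lefty1 and Lefty2 were lowest and Tdgf1 highest on the third array of every group.

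Over the 9 arrays, Lefty1 and Lefty2 had a Pearson correlation of 0.93, and of 0.95 between their deviations from the group means. Tdgf1 ran the other way, with correlations of -0.90 to Lefty1 and -0.87 to Lefty2, and of -0.96 and -0.89 between deviations. These 9 points share 3 replicate numbers and the same array normalisation, so they are given as a description. Lefty1 and Lefty2 are close copies of each other, and the probe positions were not used here, so signal of the one gene on the probe set of the other was not tested. Of all genes, 11.1% were lowest and 13.5% highest on the third array of every group. Among the 10 genes, Lefty1, Lefty2 and Bambi were lowest there, and Tdgf1 and Id1 highest.

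Skil, the gene of the Smad co-repressor SnoN, was lower in shApela_1 cells and near the control level in shApela_2 cells. It had 10.03, 10.03 and 9.99 in shApela_2 cells, 9.72, 9.72 and 9.80 in shApela_1 cells, and 9.97, 10.10 and 10.10 in shLuc cells. Every shApela_1 array lay below every array of the other groups, while shApela_2 and shLuc overlapped. The difference was -0.31 (SE 0.05) for shApela_1 against shLuc, or 80.7% of the control level. It was -0.04 for shApela_2 against shLuc and 0.27 between shApela_2 and shApela_1 (-0.03 and 0.28 without the third shApela_2 array). Same-number arrays of shApela_1 and shLuc differed by -0.25, -0.37 and -0.30.

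Smad7, the inhibitory Smad that targets TGF-beta and BMP receptors, did not separate the groups. It had 9.97, 9.74 and 9.76 in shApela_2 cells, 9.87, 9.84 and 9.82 in shApela_1 cells, and 9.96, 9.80 and 9.85 in shLuc cells. The differences from shLuc were -0.05 for shApela_2 (-0.02 without the third array) and -0.03 for shApela_1 (SE 0.07), with 95% intervals of -0.20 to 0.11 and -0.18 to 0.13.

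Bambi, the kinase-less decoy receptor of BMP and TGF-beta signalling, lay above the control in shApela_1 cells and below it in shApela_2 cells. It had 8.32, 8.34 and 8.21 in shApela_2 cells, 8.66, 8.73 and 8.51 in shApela_1 cells, and 8.43, 8.44 and 8.35 in shLuc cells. The 3 groups did not overlap, with shApela_1 on top, shLuc between and shApela_2 at the bottom. Of all genes, 3.93% had all arrays of a hairpin above and all arrays of the other hairpin below the shLuc mean, as Bambi did. The gap between the lowest shLuc array (8.35) and the highest shApela_2 array (8.34) was narrow. Bambi differed by 0.23 in shApela_1 cells (117% of control) and by -0.12 in shApela_2 cells (92.2% of control; -0.08 without the third array), with an SE of 0.06. Between shApela_2 and shApela_1 the difference was -0.34 (-0.30 without that array), and same-number arrays gave -0.34, -0.39 and -0.30.

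**Figure D2:**
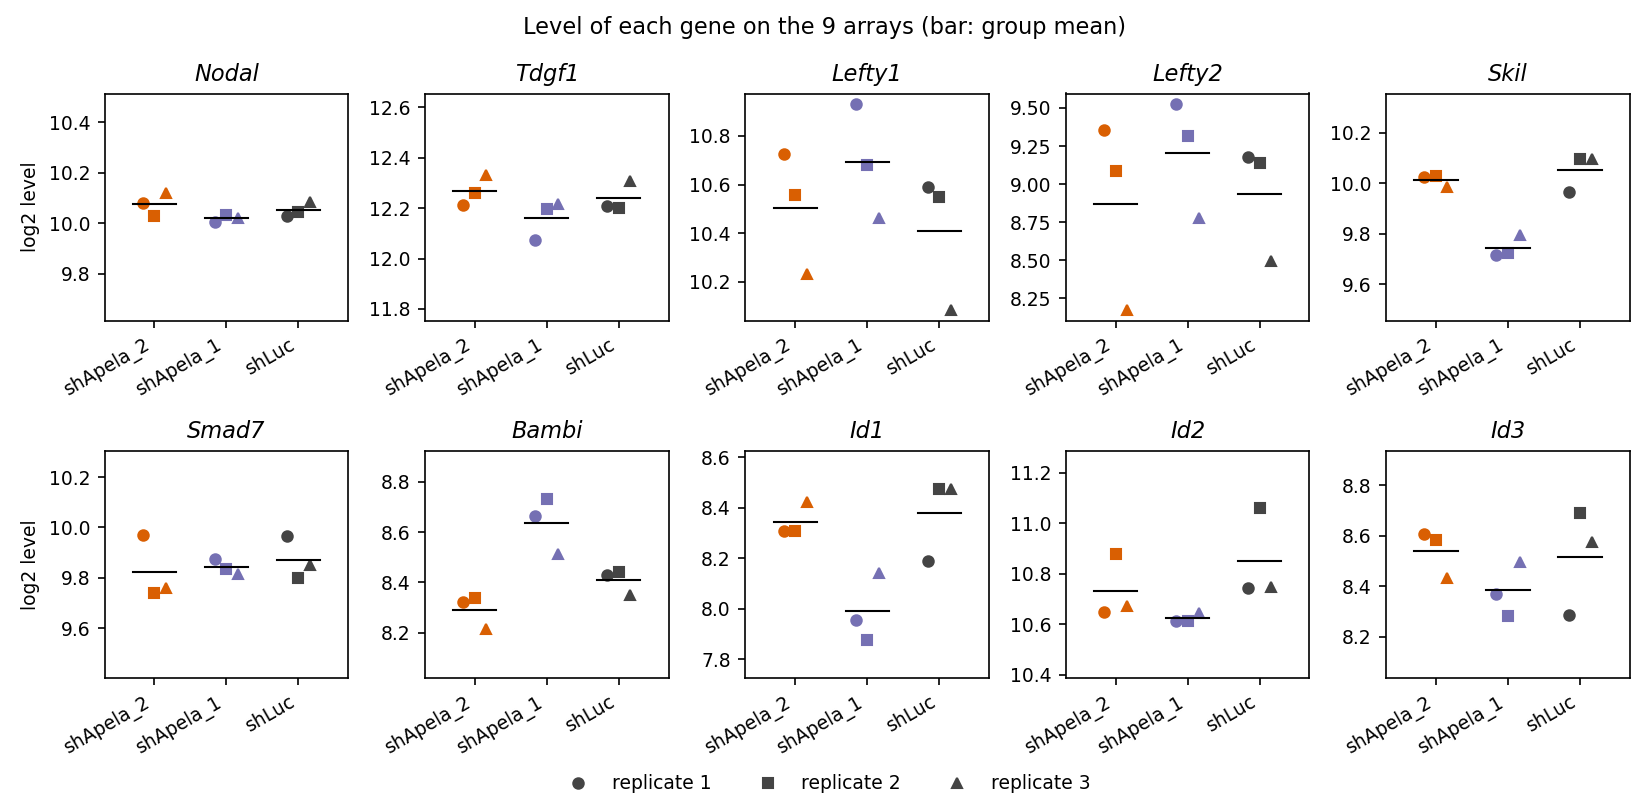
Log2 expression (vertical axes) of the 10 genes on each of the 9 arrays, with a point for each array and a line for the group mean of shApela_2, shApela_1 and shLuc cells. For Skil and Id1 the shApela_1 points lie below all the others, and for Bambi they lie above.

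Of the Id genes, which BMP signalling induces, Id1, Id2 and Id3 had lower means in shApela_1 than in shLuc cells to differing degrees, and Id3 overlapped. Id1 had 8.31, 8.31 and 8.42 in shApela_2 cells, 7.96, 7.88 and 8.14 in shApela_1 cells, and 8.19, 8.47 and 8.48 in shLuc cells. All shApela_1 arrays of Id1 lay below all others, and the shApela_2 arrays fell within the control range. The difference was -0.39 (SE 0.09) for shApela_1 against shLuc, 76.4% of the control level and the largest of the 10 genes in that comparison. It was -0.03 for shApela_2 against shLuc and 0.35 between shApela_2 and shApela_1 (-0.07 and 0.32 without the third shApela_2 array). Same-number arrays of shApela_1 and shLuc differed by -0.23, -0.60 and -0.33.

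Id2 had 10.65, 10.88 and 10.67 in shApela_2 cells, 10.61, 10.61 and 10.64 in shApela_1 cells, and 10.75, 11.06 and 10.75 in shLuc cells. The shApela_1 arrays lay close together and below the others, although the nearest shApela_2 array was only just above them, and the second array was the highest of the shApela_2 and shLuc groups. The difference was -0.23 (SE 0.09) for shApela_1 against shLuc, or 85.4% of control, and -0.12 for shApela_2 against shLuc (-0.09 without the third shApela_2 array). The second shLuc array decided much of both values. Without it they were -0.12 for shApela_1 and -0.01 for shApela_2.

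Id3 had 8.61, 8.58 and 8.44 in shApela_2 cells, 8.37, 8.28 and 8.50 in shApela_1 cells, and 8.29, 8.69 and 8.58 in shLuc cells. The shApela_1 and shLuc groups overlapped, because the first shLuc array was lower than all but 1 of the shApela_1 arrays. The difference was -0.13 (SE 0.10) for shApela_1 and 0.02 for shApela_2 against shLuc (0.08 without the third shApela_2 array). Single shLuc arrays decided these values: the shApela_1 difference was -0.25 without the first and -0.05 without the second, and the shApela_2 difference -0.09 and 0.11. Same-number arrays of shApela_1 and shLuc differed by 0.09, -0.41 and -0.08 for Id3, with mixed sign. Of the pair whose promoters are printed above, Id2 did not overlap between shApela_1 and shLuc and Id3 did, and whether the genes differ in response was not tested.

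**Figure D3:**
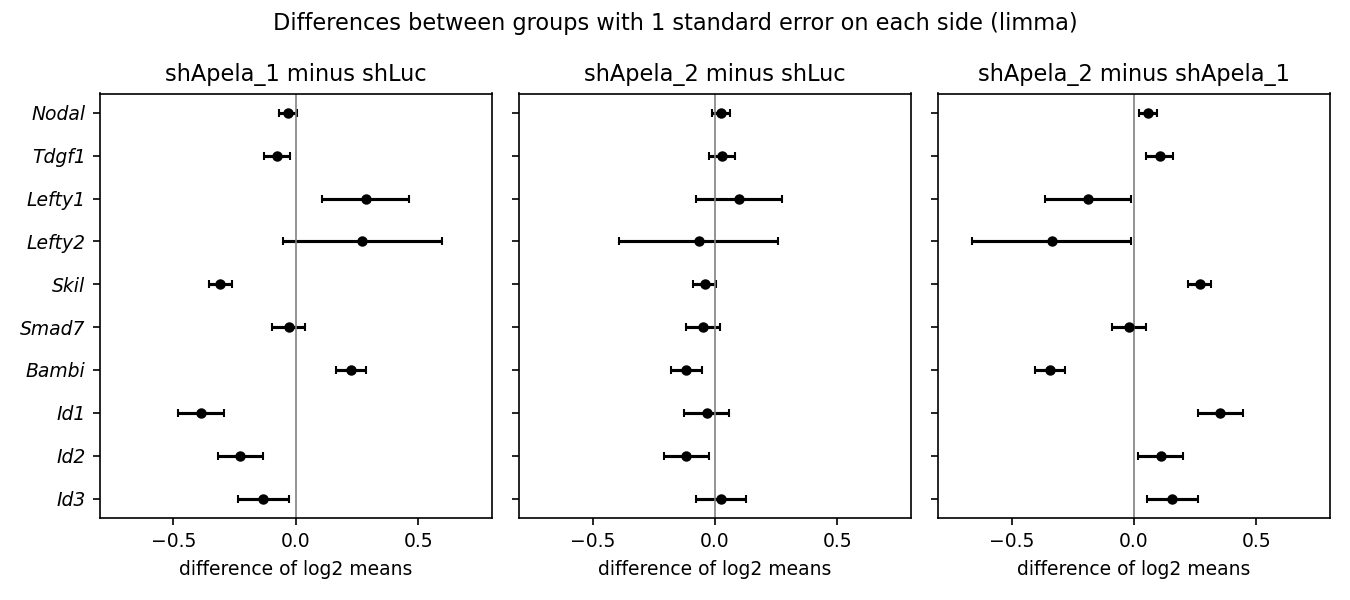
Differences of log2 group means (horizontal axis) for the 10 genes in the comparisons of each hairpin with shLuc and of the hairpins with each other, with bars of ±1 SE. For shApela_1 against shLuc, Lefty1, Lefty2 and Bambi lie above 0 and the other 7 genes below 0, with Id1, Skil and Id2 the lowest. Most values for shApela_2 against shLuc lie near 0.

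Counted over the 10 genes, shApela_1 and shLuc did not overlap for 4 (Skil, Id1 and Id2 lower, Bambi higher), while 13.7% of all genes did not overlap in that comparison (8.05% higher and 5.61% lower). In shApela_2 against shLuc, 1 gene (Bambi, lower) did not overlap, with 10.3% among all genes (4.65% lower). In shApela_2 against shApela_1, the same 4 genes did not overlap (Skil, Id1 and Id2 higher, Bambi lower), with 17.6% among all genes (7.49% higher and 10.1% lower). Nothing is read from these counts, because the genes were listed with these comparisons known. The comparisons also share arrays, so the values of 1 group enter more than 1 of them. The median difference of the 10 genes was -0.05 for shApela_1 against shLuc, -0.04 for shApela_2 against shLuc and 0.08 for shApela_2 against shApela_1, and that of all genes was 0.01, 0.02 and 0.02 in the same order of comparisons.

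Skil and Id1 had a Pearson correlation of 0.94 over the 9 arrays and of 0.81 between deviations from the group means. Skil and Bambi had -0.82 over the arrays, but -0.35 between deviations, so their opposite course lay mostly between groups. Among 10237 genes at or above the median probe set, the genes most like Skil over the 9 arrays were Jade3 (r = 0.99), a histone acetyltransferase cofactor, Bdp1 (0.99), a subunit of the RNA polymerase III initiation factor, Tbc1d20 (0.98), a Rab GTPase-activating protein, Pola1 (0.98), the catalytic subunit of DNA polymerase alpha, and Asnsd1 (0.98). The least like were Ccdc85a (-0.97), Gpatch11 (-0.96) and Nxn (-0.95). These genes were picked for their likeness to Skil on the same arrays, so their own differences, such as -0.51 for Bdp1 and -0.29 for Jade3 in shApela_1 against shLuc, are a description with no test. A correlation of 0.9 or more in size with Skil was held by 1.26% of the genes compared.

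The genes most like Bambi were Mafg (0.98), a small Maf transcription factor, Celf2 (0.98), an RNA-binding splicing regulator, Foxk2 (0.98), a forkhead factor, Akt1 (0.96), the protein kinase, and Klhl42 (0.96). The least like were Kdm5b (-0.98), a histone H3 lysine demethylase, Aff4 (-0.97), a scaffold of the super elongation complex, and Tango6 (-0.97). Klhl42 had the widest course of these, with a difference of 0.45 for shApela_1 against shLuc and of -0.73 for shApela_2 against shApela_1, which again describes a gene picked for likeness and was given no test. Correlations of 0.9 or more in size with Bambi were held by 1.57% of the genes.

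The other genes of the pathways were read from 8 lists of 81 genes, of which 76 were measured. In the fit across all genes, 0 of the 76 passed an adjusted p of 0.05 in any of the 3 comparisons (limma, Benjamini-Hochberg over 19938 genes). Among all genes, 0.336% passed for shApela_1 against shLuc, 0.015% for shApela_2 against shLuc and 0.948% for shApela_2 against shApela_1. At an unadjusted p of 0.05, 7 of the 76 passed in the first comparison (9.21%, against 7.69% of all genes), 4 in the second (5.26%, against 5.77%) and 14 in the third (18.4%, against 12.9%). The median difference of the 76 genes was 0.01, 0.01 and 0.00. The replicate numbers were taken to pair shApela_1 with shLuc and shApela_2 with shApela_1, from the data alone. With them as a block, 2 of the 76 genes fell in shApela_1 against shLuc. Of all 19938 genes, 71 rose and 119 fell in that fit. In shApela_2 against shApela_1, 1 of the 76 rose and 1 fell with the block, while 251 of all genes rose and 402 fell. The block was fitted on all 9 arrays, so shApela_2 and shLuc also shared its replicate effects, although those groups were not taken as paired. Each adjusted p given below with the block depends on this pairing of all 3 groups.

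Of 10 measured ligands, 6 were higher and 4 lower in shApela_1 than in shLuc cells, and 0 passed the test. Of all genes, 45.5% were lower in that comparison. Bmp4, the BMP ligand that embryonic stem cells make, had 10.62, 10.65 and 10.67 in shApela_2 cells, 10.76, 10.85 and 10.92 in shApela_1 cells, and 10.65, 10.63 and 10.88 in shLuc cells. The hairpin groups lay apart by -0.20 (shApela_2 minus shApela_1, adjusted p = 0.297 in limma), and the controls overlapped both. Tgfb2, a TGF-beta ligand, differed by -0.12 in shApela_1 against shLuc (limma adjusted p = 0.876).

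Of 14 receptors and co-receptors, the type II BMP receptor gene Bmpr2 had 9.74, 9.54 and 9.58 in shApela_2 cells, 9.56, 9.45 and 9.45 in shApela_1 cells, and 9.85, 9.69 and 9.83 in shLuc cells. All shApela_1 arrays lay below all controls, with a difference of -0.31 (SE 0.07, limma adjusted p = 0.143). With the replicate block Bmpr2 fell (limma adjusted p = 0.0335). Bmpr1a, a type I BMP receptor gene, had 9.77, 9.68 and 9.69 in shApela_2 cells, 9.95, 9.97 and 10.12 in shApela_1 cells, and 9.92, 9.91 and 10.0025 in shLuc cells. Here the shApela_2 arrays were the low ones, below all the others. The difference from shApela_1 was -0.30 (SE 0.06, limma adjusted p = 0.0528, 0.0324 with the block and 0.0892 without the third shApela_2 array), and that from shLuc was -0.23 (adjusted p = 0.669).

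Of 12 convertases and secreted antagonists, Furin, the protease that cleaves the Nodal and BMP precursors, had 8.40, 8.35 and 8.12 in shApela_2 cells, 7.93, 8.08 and 7.94 in shApela_1 cells, and 8.36, 8.47 and 8.22 in shLuc cells. Every shApela_1 array lay below every other array. The difference was -0.36 for shApela_1 against shLuc (SE 0.09, limma adjusted p = 0.186, 0.0429 with the block). It was 0.31 for shApela_2 against shApela_1 (limma adjusted p = 0.178, 0.0385 with the block). Fstl3, an extracellular antagonist of activin, differed by 0.23 between shApela_2 and shApela_1 (limma adjusted p = 0.4). All 12 genes of this list were higher in shApela_2 than in shApela_1 cells, with a median of 0.08, as were 57.8% of all genes. Without the third shApela_2 array 8 of 12 were higher (49.5% of all genes) and with array medians centred 8 of 12 (41.1%), and 6 of the 12 lay below the median probe set. These differences were not tested as a list, and 0 of the 12 passed alone without the block.

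The 7 other Smad genes did not pass in any comparison. Smad5, a transducer of BMP signals, had 8.36, 8.41 and 8.30 in shApela_2 cells, 8.18, 8.18 and 8.14 in shApela_1 cells, and 8.28, 8.44 and 8.36 in shLuc cells. The shApela_1 arrays were lowest, with a difference of -0.20 from shLuc (SE 0.05, limma adjusted p = 0.208). Between shApela_2 and shApela_1, Smad5 differed by 0.19 (limma adjusted p = 0.136). Smad1, which serves the same receptors, differed the other way there, by -0.20 (limma adjusted p = 0.117). The 3 shLuc values of Smad1 were nearly equal, with an SD of 0.00244.

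Of 12 intracellular regulators, Rnf111, a ubiquitin ligase that removes SnoN and inhibitory Smad proteins, had 9.62, 9.55 and 9.30 in shApela_2 cells, 9.86, 9.81 and 9.68 in shApela_1 cells, and 9.66, 9.69 and 9.67 in shLuc cells. The difference between shApela_2 and shApela_1 was -0.30 (SE 0.08, limma adjusted p = 0.166) and -0.20 without the third shApela_2 array, the lowest of the 9. Pmepa1, a TGF-beta-induced inhibitor of Smad activation, differed by 0.17 in shApela_1 against shLuc (limma adjusted p = 0.41). Of 10 measured Nodal, activin and TGF-beta targets, Eomes differed by -0.18 in shApela_1 against shLuc (0.538) and Gsc by 0.10 between shApela_2 and shApela_1 (0.395), both genes of mesendoderm transcription factors. Of 8 BMP targets besides Id1 to Id3, Msx1 differed by 0.20 in shApela_2 against shLuc (limma adjusted p = 0.68; 0.08 without the third array), and Atoh8 by 0.27 between shApela_2 and shApela_1 (0.421; 0.09 without it). Of the E proteins that Id proteins bind, Tcf12 and Tcf4 differed by -0.23 and -0.12 between shApela_2 and shApela_1 (limma adjusted p = 0.215 and 0.507; -0.19 and -0.03 without the third shApela_2 array). The 3 shLuc values of Tcf12 were equal.

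**Figure D4:**
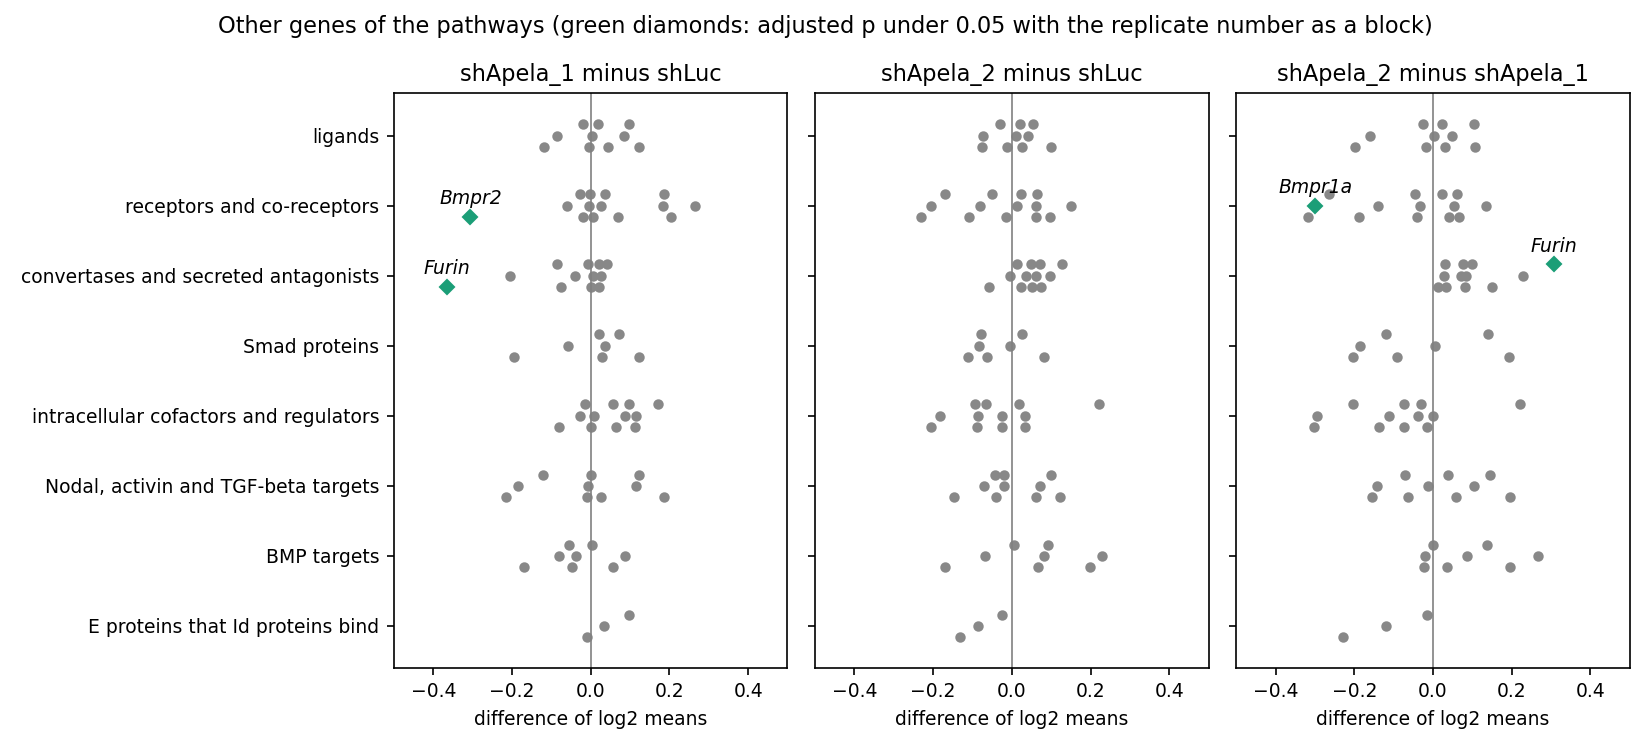
Differences of log2 group means (horizontal axis) for the 76 other pathway genes by list, in the 3 comparisons, with a point for each gene and green diamonds for genes with an adjusted p below 0.05 when the replicate number is a block. The diamonds are Bmpr2 and Furin for shApela_1 against shLuc, and Bmpr1a and Furin for shApela_2 against shApela_1.

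Markers of other cell types were set beside the difference of Skil and the Id genes, and 0 genes of any list passed the test in any comparison. The 7 trophectoderm markers, of which 4 lay below the median probe set, averaged 7.40 to 7.54 on shApela_2 arrays, 7.11 to 7.42 on shApela_1 arrays and 7.39 to 7.56 on shLuc arrays. Of the 7, 6 were lower in shApela_1 than in shLuc cells, as were 45.5% of all genes. Among them, the epithelial keratins Krt8 and Krt18 differed by -0.49 and -0.46 in shApela_1 against shLuc (limma adjusted p = 0.335 and 0.706), and fell with the replicate block (0.0263 and 0.0308). In shApela_2 against shApela_1 all 7 trophectoderm markers were higher, as were 57.8% of all genes (6 and 49.5% without the third shApela_2 array). Krt8, with a difference of 0.32 there, rose with the block (limma adjusted p = 0.0467, and 0.418 without the block). The 8 endoderm markers, of which 4 lay below the median probe set, averaged 6.78 to 6.92 on shApela_2, 6.70 to 6.85 on shApela_1 and 6.78 to 6.86 on shLuc arrays. Of the 8, 7 were lower in shApela_1 than in shLuc cells (45.5% of all genes), with a list median of -0.02. Dab2, named after its values were seen and read on the brighter of its 2 probe sets, departed from that median. It differed by -0.34 in shApela_1 and -0.26 in shApela_2 against shLuc (limma adjusted p = 0.117 and 0.68). Every hairpin array of Dab2 lay below every shLuc array, and the shApela_2 difference was -0.20 without the third array. The ranges overlapped also for 7 markers of streak and mesoderm (6.64 to 6.86, 6.64 to 6.67 and 6.66 to 6.69), 6 of neuroectoderm (7.01 to 7.15, 6.96 to 7.03 and 6.96 to 7.04) and 7 of feeder fibroblasts (7.42 to 7.62, 7.38 to 7.47 and 7.40 to 7.44), each given for shApela_2, shApela_1 and shLuc arrays. Vim, the intermediate filament gene of that last list, differed by -0.25 between shApela_2 and shApela_1 (limma adjusted p = 0.144, 0.0447 with the block). It was the only gene of the 7 that was lower there. The other 6 were higher, with and without the third shApela_2 array, as were 57.8% and 49.5% of all genes. The list median was 0.11 (0.03 without that array). In shApela_2 against shLuc all 7 were higher (57.5% of all genes), but only 2 without that array (53.2%). Vim was higher by 0.27 in shApela_1 than in shLuc cells (limma adjusted p = 0.197, 0.0612 with the block). The part of these markers in the differences of Skil, Bambi and the Id genes was not tested.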

How the data were processed

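Expression was measured on 9 arrays of R1E cells, 3 for each of shApela_2, shApela_1 and shLuc, with groups and replicate numbers from the sample titles. The authors deposited log2 expression values for 28853 probe sets, and per the submitters' processing notes these came from RMA in Partek 6.6. RMA corrects background, normalises quantiles and summarises probes. Its settings are unstated in the sources used here, and the values span a range that fits base 2. Scanner intensities were not used here.

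Of the probe sets, 21775 carried 1 gene symbol in GEO's platform annotation, 1578 several and 5500 none. The brightest probe set stood for each of 19938 genes, and 998 genes had more than 1. Of these genes, 19856 had an identifier in the RefSeq table of GRCm38.p6, and 0 symbols were changed.

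Genes were tested with limma 3.58.1 in R 4.3.3 (two-sided, default prior) in 1 fit of 9 arrays, with 6 residual and 2.72 prior degrees of freedom. P-values were Benjamini-Hochberg adjusted over all genes with a threshold of 0.05. The script was tested on simulated data. The members and lists were chosen with earlier results of these data known. Named were the 10 members, Apela, up to 2 genes of each pathway list by smallest p, and the 5 genes most and 3 least correlated with Skil and Bambi. The last group leaves out predicted genes and small RNAs.

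Deviations from group means of same-numbered arrays correlated at 0.44, 0.40 and 0.68 between shApela_1 and shLuc and at 0.18, 0.21 and 0.21 between shApela_2 and shApela_1. All were over 0.1, so those groups were taken as paired, from the data alone. Between shApela_2 and shLuc they were -0.01, 0.67 and 0.47, which fell short of it.

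The results were recomputed with an intensity trend and robust prior, without dim genes, after a second quantile normalisation, with array medians centred, with the replicate block, on the compared arrays only, with probe sets averaged per gene, and with each array left out. The block without the third shApela_2 array, and list counts without that array or with centred medians, were chosen after seeing the data. Promoter sequences are from RefSeq.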

Additional observations from a re-analysis of the deposited data

Results flagged for a closer look

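In Bambi, Bmpr1a, Rnf111 and Bmp4, all arrays of a hairpin lay above and all of the other below the shLuc mean. This pattern was shown by 784 genes, or 3.93% of all, and by other pathway genes such as Smad3 and Smad4. Genes picked for likeness to Bambi are left out here. Nothing is read from the number of genes flagged, because the pathway genes among them were named for a small p in these comparisons. Bambi differed by -0.34 between shApela_2 and shApela_1, and this difference was not tested because the gene was listed for it. Bmpr1a differed by -0.30 (limma adjusted p = 0.0528), Rnf111 by -0.30 (0.166) and Bmp4 by -0.20 (0.297), all lower in shApela_2 than in shApela_1 cells and none passed the threshold. With the replicate block, Bmpr1a passed (0.0324).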

How the results depend on the processing

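With 3 arrays a group, counts of called genes moved more than the values of the 10 genes. For shApela_1 against shLuc 67 genes passed, against 37 with an intensity trend and robust prior, 31 with centred medians, 44 with only the compared arrays, 190 with the replicate block, and 3 to 146 when an array was left out (3 without the second shApela_1 array, 146 without the third shApela_2 array). For shApela_2 against shLuc 3 passed, against 7 after a second quantile normalisation, 8 with the block and 2 to 6 with an array left out (6 without the third shApela_2 array). For shApela_2 against shApela_1 189 passed, against 653 with the block, 28 with only the compared arrays and 19 to 222 with an array left out. Each of the 9 arrays moved the first count, and each but the third shApela_2 array the last. The block without the third shApela_2 array, chosen after seeing the data, gave 1376, 23 and 1200. The cause was not tested. Higher and lower calls split 28 to 39 for shApela_1 against shLuc, 29 to 70 after the second quantile normalisation and 10 to 21 with centred medians, and 71 to 118 for shApela_2 against shApela_1, 134 to 120 and 38 to 125.

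Of the other pathway genes, 0 passed in each comparison. In shApela_1 against shLuc 2 passed with the block and 7 with the block and without the third shApela_2 array (Acvr2b, Bmpr2, Fstl3, Furin, Klf10, Rgmb and Smad5). In shApela_2 against shApela_1 1 passed with dim genes left out (Bmpr1a), 1 after the second quantile normalisation (Smad5), 2 with the block, and 5 with the block and without that array (Bmpr1a, Furin, Junb, Rnf111 and Smad5). Leaving out arrays gave 0 to 0. Of 510 member values under the alternatives, 506 moved by less than the SD between replicates, and the other 4 were Nodal in comparisons of shApela_2 (0.06 and 0.10 after quantile normalisation, -0.02 and 0.02 with centred medians). A gene with a wide SD can meet this measure and still change sign. Lefty2 in shApela_2 against shLuc ran from -0.31 to 0.28 and kept its sign under 13 of 17 alternatives. Nodal, Tdgf1, Lefty1, Id1 and Id3 also changed sign there under some alternatives. Smad7 did so in shApela_1 against shLuc, and Smad7 and Lefty2 in shApela_2 against shApela_1. For Lefty2 this came with replicate 3 of shApela_2 left out, which unbalances the replicate numbers. Skil, Bambi, Id1 and Id2 kept the sign of their difference between shApela_1 and shLuc under every alternative run. So did Nodal, Tdgf1, Lefty1, Lefty2 and Id3, which overlapped between these groups, so a kept sign does not set the former genes apart.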

Other observations

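Bmp7, a BMP ligand, and Id4, the fourth member of the Id family, were picked after their values were seen, because they also were lowest on the third array of every group. Bmp7 had 8.47, 8.67 and 7.996 in shApela_2 cells, 8.55, 8.49 and 8.08 in shApela_1 cells, and 8.34, 8.72 and 7.78 in shLuc cells. Id4 had 7.90, 7.87 and 7.13 in shApela_2 cells, 7.90, 7.78 and 7.26 in shApela_1 cells, and 7.79, 7.94 and 7.36 in shLuc cells. For both genes the gap between the third array and the others was wider than the largest difference between group means. In all, 13 of the 76 other pathway genes (17.1%) were lowest on the third array of every group, against 11.1% of all genes, and 5 (6.58%) were highest there, against 13.5% of all genes. Of the 10 genes described above, 0 had an equal value on more than 1 array, whereas 51.5% of all genes did.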
